A study of Saccharomyces cerevisiae with 12 samples.

Results

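GCN4 (YEL009C) and 43 genes of amino acid synthesis enzymes were followed through the total RNA of budding yeast lacking single RNA helicases. The genes were taken by name and locus identifier and by no cut on their values, but with earlier results of these data known. They cover arginine (7 genes), histidine (4), the branched-chain amino acids (8), lysine (7), tryptophan and the aromatic trunk (8), threonine (4), serine (3) and asparagine (2). These 44 genes are rows of a table of 10891 features, and all 44 passed the filter on low values that left 9497 features for testing.

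Gcn4 is a transcription activator of the basic leucine zipper class that yeast makes in larger amounts when amino acids run short. Its mRNA carries short upstream open reading frames in the leader, so that its amount is set largely by translation: the kinase Gcn2 phosphorylates initiation factor eIF2, and ribosomes then reach the GCN4 reading frame more often. Gcn4 protein binds the sequence TGACTCA before many genes of amino acid synthesis, and pathway factors such as Leu3, for leucine and isoleucine-valine genes, and Lys14, for lysine genes, act at some of the same promoters. Dhh1 is a DEAD-box protein of mRNA decapping and translational repression, Ski2 belongs to the complex that feeds the cytoplasmic exosome, Slh1 acts on stalled ribosomes, Dbp1 is a relative of the initiation helicase Ded1, and Ecm32 (Mtt1) has been tied to translation termination.

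The parent strain was BY4741, MATa his3Δ1 leu2Δ0 met15Δ0 ura3Δ0 (WT below), and each of the 5 deletion strains carried 1 helicase gene replaced by kanMX4 in that background: ecm32-delta, slh1-delta, ski2-delta, dbp1-delta and dhh1-delta. All strains were grown at 30°C in YPD, a rich medium that supplies amino acids, to an OD600 of 0.5, so no group was starved. Stranded libraries of rRNA-depleted RNA were made from 2 biological replicates of each strain, 12 libraries in all. The labels do not say whether the replicates of a deletion come from separate clones, and p-values measure the spread between these libraries.

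The libraries held 8.79 to 17.66 M reads, median 14.48 M, and the 44 genes took 1.48 to 1.67% of the reads of yeast features. The labels were checked on the deleted genes: over both replicates ECM32 had 5 reads in ecm32-delta (1336 in WT), SLH1 had 1 in slh1-delta (2537 in WT) and DHH1 had 150 in dhh1-delta (5008 in WT). The libraries labelled ski2-delta held 3094 SKI2 reads but 6 DBP1 reads, and those labelled dbp1-delta held 295 DBP1 reads but 3 SKI2 reads (3036 and 226 in WT). These 4 libraries go against their labels and are called by them only as "labelled ski2-delta" and "labelled dbp1-delta" below. WT replicate 1 stood apart in its share of spike-in reads, 1.22% against 1.72 to 2.69% in the other 11 libraries, and results that rest on it are given without it as well.

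The sequences before 7 of the genes are shown, and their elements are set beside the directions in dhh1-delta further below. Of these, 6 form pairs in the lysine, leucine and asparagine pathways, whose genes differed in direction in dhh1-delta or, for the asparagine synthetases, in that 1 passed the test and the other did not, and CPA1 had the lowest difference of the genes there. Each is read 5′ to 3′ on the gene's own strand from the RefSeq copy of genome build R64, and the capitals mark matches to TGANTCA (the Gcn4 element with its middle base free), a pair of CCGG blocks with 2 free bases between them (Leu3 type) or TCCNNNGGA (Lys14 type).
LYS1 (YIR034C, chrIX:420912-421011, minus strand): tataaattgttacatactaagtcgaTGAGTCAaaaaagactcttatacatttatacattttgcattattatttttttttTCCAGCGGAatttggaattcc
LYS9 (YNR050C, chrXIV:715539-715638, minus strand): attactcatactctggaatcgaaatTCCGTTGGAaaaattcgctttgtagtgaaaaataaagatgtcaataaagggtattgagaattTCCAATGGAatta
LEU4 (YNL104C, chrXIV:426830-426904, minus strand): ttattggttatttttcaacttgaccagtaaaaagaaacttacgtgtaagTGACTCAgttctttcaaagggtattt
LEU1 (YGL009C, chrVII:478853-478977, minus strand): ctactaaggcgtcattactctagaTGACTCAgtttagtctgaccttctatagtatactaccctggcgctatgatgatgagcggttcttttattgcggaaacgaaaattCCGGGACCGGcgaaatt
CPA1 (YOR303W, chrXV:882399-882473, plus strand): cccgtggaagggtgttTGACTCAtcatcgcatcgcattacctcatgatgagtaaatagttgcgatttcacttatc
ASN2 (YGR124W, chrVII:739719-739793, plus strand): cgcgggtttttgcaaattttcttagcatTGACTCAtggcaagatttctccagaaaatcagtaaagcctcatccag
ASN1 (YPR145W, chrXVI:822370-822444, plus strand): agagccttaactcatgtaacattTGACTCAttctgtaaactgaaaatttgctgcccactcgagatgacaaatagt

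Within the 500 bases before the start codon, searched on both strands, TGACTCA was found in 28 of the 44 genes (63.6%), against 240 of 6000 genes of the genome (4.0%). The looser TGANTCA, which includes every TGACTCA, was found in 30 (68.2%) against 707 (11.8%). By pathway, TGACTCA was present in 7 of 7 arginine genes, 4 of 4 histidine genes, 2 of 2 asparagine genes, 6 of 8 branched-chain genes, 3 of 4 threonine genes, 4 of 8 aromatic genes, 2 of 7 lysine genes and 0 of 3 serine genes. The Leu3-type pair of CCGG blocks was found before 4 of the 8 branched-chain genes (LEU1, ILV2, ILV5 and BAT1) and no other member, against 0.267% of all genes. The Lys14-type TCCNNNGGA was found before 4 of the 7 lysine genes (LYS1, LYS9, LYS12 and LYS21) and before TRP3 and THR4, against 5.9% of all genes. A match is a run of letters and not a tested site.

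Levels are given as deposited densities, which are normalized reads per nucleotide and so allow genes of different length to be compared. In WT, GCN4 RNA stood at 4.82 ± 0.512 (SD, n = 2). The highest of the 44 was ILV5, the acetohydroxyacid reductoisomerase of isoleucine and valine synthesis, at 15.6 ± 2.78, and the lowest was ARG3, ornithine carbamoyltransferase, at 0.0203 ± 0.00123. In this rich medium 40 of the 44 lay above the median WT density of 5916 protein-coding genes, 0.258, and the 4 that did not were ARG1, ARG3, ARG5,6 and LYS1.

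The pathways were spread around different levels. Arginine genes were the lowest, with ARG4 (argininosuccinate lyase) on top at 0.541 ± 0.126. Histidine genes ran from HIS7 (imidazole glycerol phosphate synthase) at 0.501 ± 0.0571 to HIS1 (the first enzyme) at 4.61 ± 0.461. Lysine genes ran from LYS1 at 0.256 ± 0.0532 to LYS20 (homocitrate synthase, the first step) at 1.33 ± 0.224. Aromatic genes ran from TRP4 (anthranilate phosphoribosyltransferase) at 0.693 ± 0.0899 to ARO4 (an isozyme of the first step) at 3.80 ± 0.527. Threonine genes ran from HOM3 (aspartate kinase) at 1.15 ± 0.158 to HOM2 (aspartate semialdehyde dehydrogenase) at 5.49 ± 0.689, and serine genes from SER3 at 0.462 ± 0.0880 to SER1 (phosphoserine aminotransferase) at 2.58 ± 0.276. The lowest branched-chain gene, ILV1 (threonine deaminase), stood at 2.37 ± 0.230, above every arginine and lysine gene. Neighbours in the order of levels often lay inside the replicate spread: ASN2 at 5.55 ± 0.785 and HOM2 did not separate, and neither did CPA1 at 0.489 ± 0.0696 and ARG4.

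GCN4 RNA passed the test against WT in neither ecm32-delta, slh1-delta nor dhh1-delta. Its density was 4.46 and 5.18 in WT, 5.45 and 5.01 in ecm32-delta, 4.48 and 4.53 in slh1-delta, and 4.73 and 5.11 in dhh1-delta. The libraries labelled ski2-delta stood at 6.89 and 7.17 and those labelled dbp1-delta at 6.42 and 7.72, above both WT libraries. In limma-trend, a linear model over all features and all 12 libraries with Benjamini-Hochberg adjustment over the 9497 features tested, the log2 difference of GCN4 from WT was 0.12 in ecm32-delta (adjusted p = 0.777), -0.09 in slh1-delta (0.848) and 0.03 in dhh1-delta (0.848). It was 0.55 in the libraries labelled ski2-delta (adjusted p = 0.011) and 0.55 in those labelled dbp1-delta (0.0212). With libraries scaled on protein-coding genes these became 0.11 and 0.20, with adjusted p of 0.431 and 0.136. Against the mean of the other 4 deletion strains, GCN4 in dhh1-delta was called lower (log2 -0.25, adjusted p = 0.0375, limma-trend). With protein-coding factors that difference was -0.02 (adjusted p = 0.683), and it passed in 4 of the 10 fits that left out 1 library, with adjusted p of up to 0.278. RNA level says nothing of the amount of Gcn4 protein.

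In dhh1-delta the synthesis genes moved in both directions, within pathways as well as between them. Against WT, 7 genes were higher (among them LYS1, LEU4, LYS20, TRP4, ARG4 and ARO3), 9 were lower (CPA1, LEU1, ARG8, ARO2, LYS21, LYS4, ASN1, LYS9 and ILV2), and 28 did not pass the test in limma-trend. The 16 called genes are 36.4% of the 44, where 37.9% of all 9497 features were called (13.7% higher and 24.3% lower) and 42.5% of protein-coding genes, so the genes were called about as often as genes in general. The median log2 difference of the 44 was 0.00065, against -0.04 for protein-coding genes and -0.20 for all features tested, and single genes ran from -0.88 to 1.09.

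**Figure D1:**
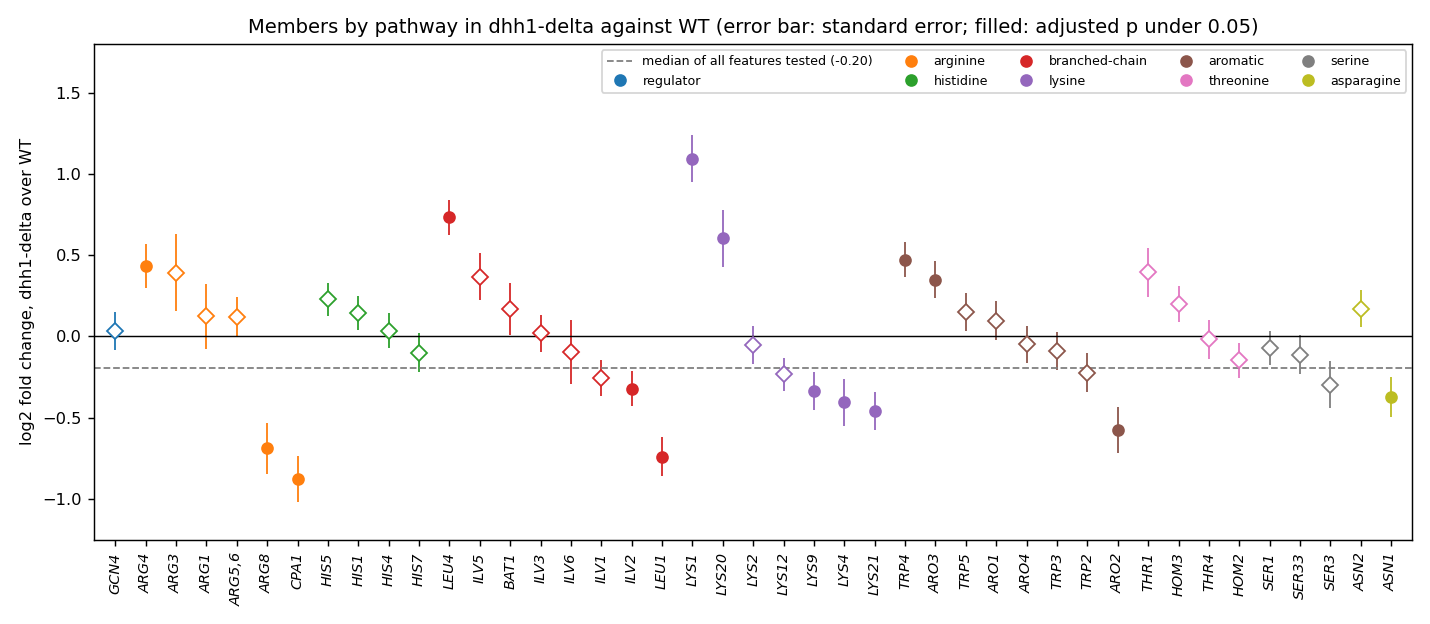
Log2 fold change of 43 of the 44 genes in dhh1-delta over WT (vertical axis, limma-trend, 2 libraries each) with its standard error, ordered by pathway and by size. Filled circles passed an adjusted p under 0.05, open diamonds did not, and the dashed line is the median of all features tested, -0.20. LYS1 at 1.09 is the highest and CPA1 at -0.88 the lowest, and the arginine, branched-chain, lysine and aromatic groups each hold called genes on both sides of 0.

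Lysine synthesis had 2 genes called higher and 3 lower of 7. LYS1 encodes the saccharopine dehydrogenase of the last step, which releases lysine. Its density was 0.219 and 0.294 in WT and 0.529 and 0.566 in dhh1-delta, and it lay between 0.250 and 0.374 in the 8 libraries of the other deletions. Both dhh1-delta libraries thus stood above all 10 others, and the gene was 2.13-fold higher than WT (log2 1.09, SE 0.15, adjusted p = 0.000191, limma-trend). LYS9 encodes the saccharopine dehydrogenase that acts just before it. Its density was 1.12 and 1.29 in WT and 0.963 and 0.949 in dhh1-delta, below both WT libraries, and it fell by 0.33 on the log2 scale (SE 0.12, adjusted p = 0.0421).

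LYS20 and LYS21 encode the homocitrate synthase isozymes that open the pathway. LYS20 had densities of 1.17 and 1.49 in WT and 1.96 and 2.06 in dhh1-delta (log2 0.60, SE 0.18, adjusted p = 0.0195). LYS21 had 0.951 and 1.14 in WT and 0.728 and 0.786 in dhh1-delta (log2 -0.46, SE 0.12, adjusted p = 0.0108). The reading frames of this pair are 95.0% identical over 1172 bases, so the split of reads between them is uncertain. LYS4 (homoaconitase) fell from 0.515 and 0.704 to 0.456 and 0.452 (log2 -0.40, SE 0.14, adjusted p = 0.0449). LYS12 (homoisocitrate dehydrogenase) at -0.23 and LYS2 (aminoadipate reductase) at -0.05 did not pass. Relative to the median of all features the differences of LYS4 and LYS9 were -0.21 and -0.14, and with protein-coding factors they were -0.37 and -0.30.

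The branched-chain genes had 1 called higher and 2 lower of 8. LEU4, with a reading frame 81.3% identical to that of LEU9 over 1637 bases, encodes the main isopropylmalate synthase, which commits carbon to leucine. Its density was 2.54 and 2.91 in WT and 4.69 and 4.36 in dhh1-delta, above all 10 other libraries, which reached at most 3.53 (1.66-fold over WT, log2 0.73, SE 0.11, adjusted p = 0.000334). LEU1, the isopropylmalate isomerase of the next step, went the other way. It stood at 4.92 and 6.07 in WT and at 3.27 and 3.27 in dhh1-delta, below all other libraries (log2 -0.74, SE 0.12, adjusted p = 0.00076). ILV2, the catalytic subunit of acetolactate synthase, fell from 2.88 and 3.42 to 2.53 and 2.49 (log2 -0.32, SE 0.11, adjusted p = 0.034), -0.13 relative to the median of all features and -0.29 with protein-coding factors. ILV5, the most abundant member, stood at 13.6 and 17.6 in WT and 19.6 and 20.3 in dhh1-delta. Its log2 difference of 0.37 missed the threshold against WT as deposited (adjusted p = 0.063). ILV5 was called higher with protein-coding factors (0.40, adjusted p = 0.00201) and against the mean of the other 4 deletion strains (0.31, 0.0338). In the latter comparison its difference ran from 0.27 to 0.35 when 1 library was left out. ILV1 at -0.26, ILV6 at -0.10, ILV3 at 0.02 and BAT1 at 0.17 did not pass against WT as deposited either.

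Among the 7 arginine genes, 2 were called higher and 2 lower. CPA1 encodes the small subunit of the arginine-specific carbamoyl phosphate synthetase, and the leader of its mRNA holds an upstream reading frame through which arginine lowers its translation. CPA1 had densities of 0.440 and 0.539 in WT and 0.253 and 0.273 in dhh1-delta. This was the lowest pair among all 12 libraries, 1.84-fold below WT (log2 -0.88, SE 0.14, adjusted p = 0.000714).

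ARG8, acetylornithine aminotransferase, stood at 0.261 and 0.332 in WT and 0.182 and 0.179 in dhh1-delta (log2 -0.69, SE 0.16, adjusted p = 0.00511). ARG4 went from 0.453 and 0.630 to 0.745 and 0.702 (log2 0.43, SE 0.14, adjusted p = 0.0254). ARG3, the rarest member, stood at 0.0194 and 0.0212 in WT and 0.0317 and 0.0250 in dhh1-delta, which rests on 45 and 87 reads in all and did not pass (log2 0.39, adjusted p = 0.211). ARG1 (argininosuccinate synthetase) and ARG5,6 (acetylglutamate kinase and reductase), each at 0.12, overlapped WT.

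The aromatic group had 2 genes called higher and 1 lower of 8. TRP4 rose from 0.629 and 0.756 to 0.953 and 0.966 (log2 0.47, SE 0.11, adjusted p = 0.00559), above every other library. ARO3, an isozyme of the first step of the shared aromatic trunk, rose from 1.23 and 1.46 to 1.71 and 1.71 (log2 0.35, SE 0.12, adjusted p = 0.0331). ARO2, the chorismate synthase that closes the trunk, fell from 3.32 and 4.21 to 2.54 and 2.47 (log2 -0.58, SE 0.14, adjusted p = 0.00752). The pentafunctional ARO1 at 0.10, ARO4 at -0.05 and the other TRP genes at -0.22 to 0.15 did not pass.

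Of the 13 remaining enzyme genes 1 was called. ASN1, one of the asparagine synthetase isozymes, fell from 3.42 and 4.25 to 2.86 and 3.02 (log2 -0.37, SE 0.12, adjusted p = 0.0327), while its isozyme ASN2 stood at 4.99 and 6.10 in WT and 6.21 and 6.22 in dhh1-delta and did not pass (log2 0.17, adjusted p = 0.252). None of the 4 histidine genes (-0.10 to 0.23), 4 threonine genes (-0.15 to 0.39) or 3 serine genes (-0.30 to -0.07) was called. THR1, homoserine kinase, came nearest in these groups at 0.39 (adjusted p = 0.0593). SER3, whose transcription is known to be repressed by the upstream noncoding transcript SRG1, overlaps the 3′ end of that transcript on chromosome V, so reads of the pair may be hard to tell apart.

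**Figure D2:**
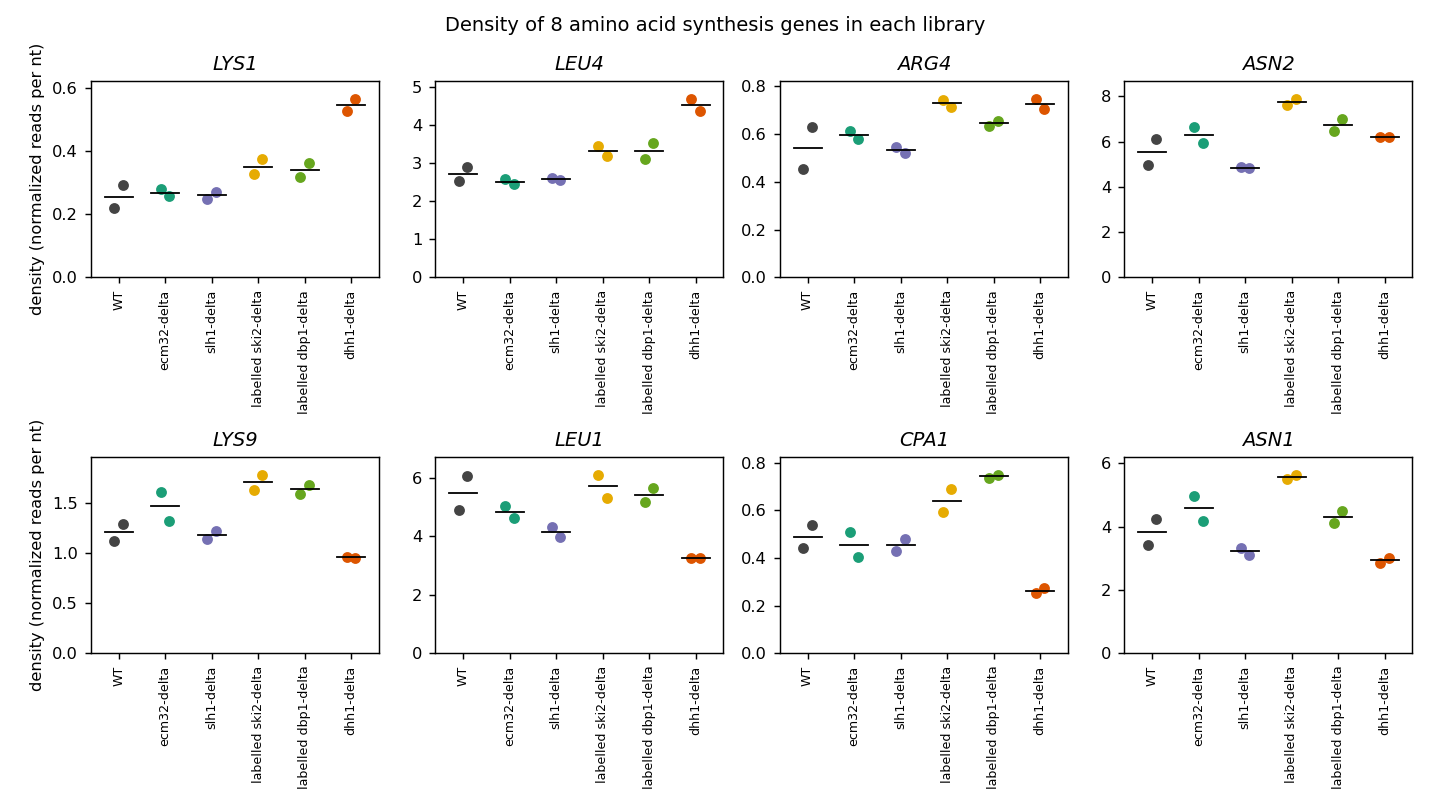
Density (vertical axis, normalized reads per nucleotide, from 0) of LYS1, LEU4, ARG4 and ASN2 (top) and of LYS9, LEU1, CPA1 and ASN1 (bottom) in each library, with the strain on the horizontal axis. Points are libraries and bars are the means of 2. In dhh1-delta, LYS1 at 0.529 and 0.566 and LEU4 at 4.69 and 4.36 lie above all other libraries, and LEU1 at 3.27 and 3.27 and CPA1 at 0.253 and 0.273 lie below them.

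The calls in dhh1-delta were compared across references and scalings. All 16 were also called when libraries were scaled on protein-coding genes, which called 25 of the 44 (13 higher and 12 lower, where 47.1% of all features were called). Against the mean of the other 4 deletion strains, 23 of the 44 passed, 5 higher and 18 lower, where 56.7% of all features (11% higher and 45.7% lower) and 60.6% of protein-coding genes were called. With protein-coding factors that split was 15 higher and 12 lower, where 54.9% of all features were called. As deposited, all 9 lower genes and 4 of the 7 higher genes (LYS1, LEU4 and TRP4 included) were among them. There LYS1 differed by 0.85, LEU4 by 0.64 and TRP4 by 0.39 on the log2 scale, CPA1 by -1.08, ARG8 by -0.92, LYS21 by -0.71, ARO2 by -0.65 and LYS4 by -0.64, each with an adjusted p of at most 0.00268. LYS20 (log2 0.07, adjusted p = 0.685), ARG4 (0.22, 0.0972) and ARO3 (0.10, 0.382) did not pass there as deposited in limma-trend. Their densities in dhh1-delta overlapped those in the other deletions. With protein-coding factors ARG4 (0.45, adjusted p = 0.00145) and ARO3 (0.32, 0.000152) passed against that reference, and LYS20 (0.30, 0.0589) did not. That reference does not include WT replicate 1, but it does include the libraries that go against their labels.

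Leaving out each WT or dhh1-delta library in turn, LYS1, LEU4, TRP4, CPA1, LEU1 and ARG8 passed in all 4 fits, ARO2 in 3 and LYS21 in 2. LYS20, ARG4, ARO3, LYS4, ASN1, LYS9 and ILV2 passed in 1 of 4 each. Without WT replicate 1, LYS20 (adjusted p = 0.129), ARG4 (0.187) and ARO3 (0.184) were no longer called in limma-trend. Without WT replicate 2, ARO2 (0.0653), LYS21 (0.0831), LYS4 (0.344), ASN1 (0.221), LYS9 (0.22) and ILV2 (0.205) were not. Without the first or the second dhh1-delta library 8 and 9 of the 44 genes were called. With factors from spike-ins, CPA1 (-1.10) and LEU1 (-0.96) alone were called, where 16.6% of all features were.

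Ratios of genes within a library do not depend on how libraries are scaled. LYS20 over LYS21 was 2.69 and 2.63 in the dhh1-delta libraries and 1.23 to 1.75 in the other 10. ASN2 over ASN1 was 2.17 and 2.06 against 1.34 to 1.57, and ARO3 over ARO4 was 0.483 and 0.454 against 0.351 to 0.424. In these pairs of isozymes both dhh1-delta libraries lay above all others (exact two-sided permutation test of 2 against 10 libraries, p = 0.0303, the smallest the design allows, adjusted p = 0.0404 over 4 pairs). That p takes the libraries as exchangeable although they are replicate pairs of 6 strains. At the level of strains 1 against 5 could not pass. The 4 pairs were chosen with earlier results of these data known. Those that passed hold genes called above from the same libraries, so that p is no separate evidence. For the phosphoglycerate dehydrogenase isozymes, SER33 over SER3 was 2.34 and 2.49, inside the range of 2.00 to 2.82 in the others (exact p = 0.667). ASN1 and ASN2 are 81.2% identical, SER3 and SER33 83.3% and ARO3 and ARO4 67.1%, so their reads are more separable than those of LYS20 and LYS21.

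A further 2 ratios were chosen after their values were seen and are given without a test. LEU4 over LEU1, which act in succession, was 1.43 and 1.34 in dhh1-delta and 0.480 to 0.642 in the other 10 libraries. LYS1 over LYS9 was 0.550 and 0.596 against 0.173 to 0.227. Both ratios were thus higher in the dhh1-delta libraries than in any other.

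**Figure D3:**
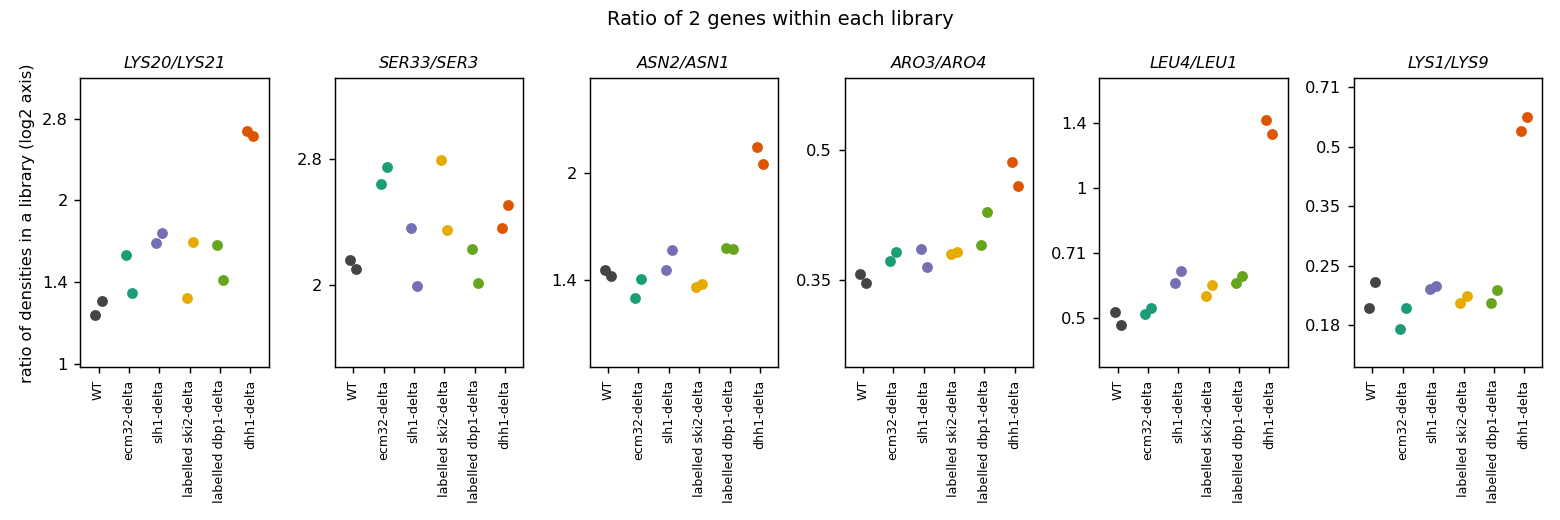
Ratio of the densities of 2 genes within each library (vertical axis, log2 scale), by strain on the horizontal axis, 1 point per library. For LYS20/LYS21, ASN2/ASN1, ARO3/ARO4, LEU4/LEU1 and LYS1/LYS9 both dhh1-delta points lie above the other 10, and for SER33/SER3, at 2.34 and 2.49, they lie among them.

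TGACTCA and the Lys14-type element were each found before genes that moved in either direction in dhh1-delta, and no test of this was run. TGACTCA was present before 4 of the 7 genes higher in dhh1-delta, 4 of the 9 lower and 20 of the 28 not called. LEU4 and LEU1 both hold it and moved apart. LEU1 and ILV2, called lower against WT, and ILV5 and BAT1, not called there, are the genes with a Leu3-type match. No gene called higher against WT holds that match, and 4 genes are too few to tell whether it goes with direction. Of the lysine genes with a Lys14-type match, LYS1 was higher, LYS9 and LYS21 were lower and LYS12 was not called.

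In ecm32-delta no member was called, where 0.0737% of all features (7 of 9497, limma-trend) and 0.0531% of protein-coding genes were, and voom called 0 as well. Of the 44, 37 lay above 0 and 33 above the median of all features. At an unadjusted p under 0.05 there were 9 genes, all with a positive difference. The share of all features at that p was not counted, so the number cannot be set against the table as a whole. It also changed when single libraries were left out, as did the median of all features. That median was -0.01 without WT replicate 1 and 0.15 without WT replicate 2. It was 0.03 and 0.13 without the first and the second ecm32-delta library. The largest of the 9 was LYS20, at 2.26 and 1.70 against 1.17 and 1.49 in WT (log2 0.57, adjusted p = 0.485). ARG1 at 0.52 and HIS7 and LYS21, each at 0.36, were also among the 9. By pathway the median was 0.33 for arginine, 0.25 for lysine and -0.0028 for the branched-chain genes, beside 0.10 for protein-coding genes and 0.08 for all features. These genes were chosen after their values were seen and none passed.

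In slh1-delta no member was called either, where 0.0105% of all features (1 of 9497, SLH1 itself) and 0.0177% of protein-coding genes were. Of the 44, 5 lay above 0 and 13 above the median of all features, and the median was -0.14 beside -0.10 for protein-coding genes and -0.09 for all features. At an unadjusted p under 0.05 there were 3 genes, and here too the share of all features was not counted. The number changed when single libraries were left out, as did the median of all features. That median was -0.18 without WT replicate 1 and -0.02 without WT replicate 2. It was -0.06 and -0.12 without the first and the second slh1-delta library. LEU1 had the largest of the 3 differences, at 4.34 and 3.99 against 4.92 and 6.07 in WT (log2 -0.39, adjusted p = 0.574), with TRP3 at -0.27 and HIS5 at -0.24 after it.

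In the libraries labelled ski2-delta, 34 of the 44 genes were called higher and none lower (77.3%), where 40% of all features (39.3% higher) and 60.3% of protein-coding genes were called. Their median log2 difference, 0.41, lay between that of all features, 0.39, and that of protein-coding genes, 0.43. The called genes with the largest differences were LYS20 at 0.74, LYS4 at 0.62, HIS7 at 0.61, ASN1 at 0.55 and GCN4 at 0.55. All 7 lysine, 8 aromatic, 4 histidine and 2 asparagine genes were called, with 5 of 7 arginine, 3 of 4 threonine, 2 of 3 serine and 2 of 8 branched-chain genes. None of the 44 was called with factors from protein-coding genes (median -0.02, 0.832% of all features called), without WT replicate 1 or without the second of these libraries.

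In the libraries labelled dbp1-delta, 7 genes were called higher and none lower (15.9%), where 17.6% of all features (17.2% higher) and 24.8% of protein-coding genes were called. CPA1 stood at 0.736 and 0.750 against 0.440 and 0.539 in WT (log2 0.60, SE 0.14, adjusted p = 0.0266). LYS20 at 0.58, GCN4 at 0.55, LYS9 at 0.44, LYS12 at 0.35 and HIS5 at 0.34 were also called. None was called with factors from protein-coding genes (0.716% of all features), without WT replicate 1 or without the second of these libraries, and all comparisons with WT share its 2 libraries.

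**Figure D4:**
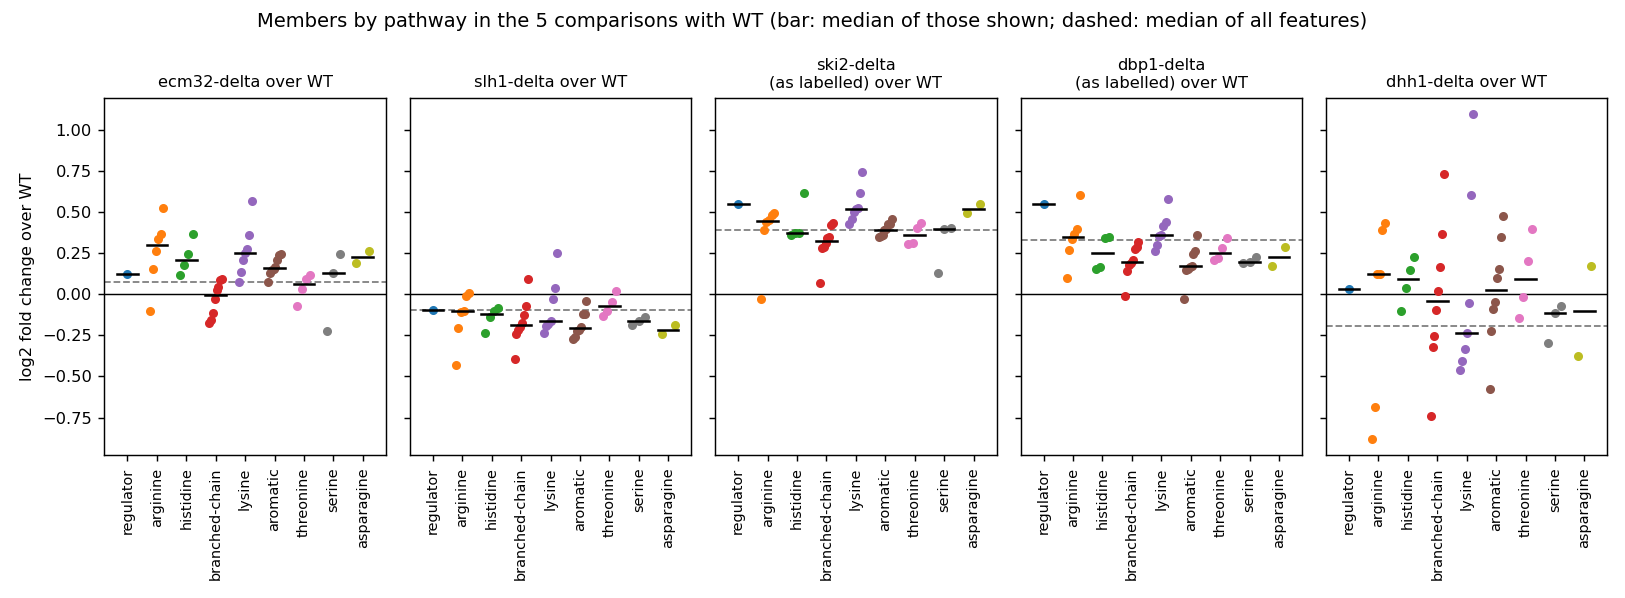
Log2 fold change over WT of 43 of the 44 genes (points), grouped by pathway on the horizontal axis, in each of the 5 deletion strains. Bars are medians of the points shown and the dashed line is the median of all features tested (0.08, -0.09, 0.39, 0.33 and -0.20 from left to right). Points in dhh1-delta run from -0.88 to 1.09, and those of the libraries labelled ski2-delta from -0.03 to 0.74.

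Other genes of amino acid metabolism were counted by lists in dhh1-delta against WT, beside the 37.9% of all features called (13.7% higher and 24.3% lower). Of 30 other synthesis genes tested, 4 were higher and 8 lower. ARO9, an aromatic aminotransferase, was higher by 1.29 on the log2 scale and AAT2, an aspartate aminotransferase, by 0.86, whereas GLT1, glutamate synthase, differed by -1.66 and GDH3, a glutamate dehydrogenase, by -1.16. Of 19 permeases and parts of their sensing pathway, 9 were higher and 1 lower, with the branched-chain amino acid permease BAP2 at 1.14, the proline permease PUT4 at 0.91, the general permease GAP1 at 0.86 and the sensor SSY1 at -0.54. Of 9 catabolic genes, 4 were higher and none lower, with the glutamate decarboxylase GAD1 at 2.15 and the proline oxidase PUT1 at 1.08.

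The factors that act on GCN4 and on the pathways were counted likewise. Of 15 factors of general amino acid control, 2 were called: PHO85, a kinase that marks Gcn4 for degradation, was higher by 0.90, and YIH1, an inhibitor of Gcn2 activation, differed by -0.68. Of 13 pathway regulators, PHO2 (0.99), GAT1 (0.94) and CHA4 (0.83) were higher, and BAS1 (-0.81), PUT3 (-0.75), ARG81 (-0.56) and ARO80 (-0.50) were lower. LEU3 and LYS14 were not among the called. In ecm32-delta and slh1-delta none of the genes on these 5 lists was called.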

How the data were processed

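Total RNA of 12 libraries was analysed from a deposited table of normalized densities (signal values). Per the submitters' processing notes the tools were DESeq2, featureCounts 2.0.0, HISAT2 2.2.0 and Trim Galore, on build R64; their roles are not given in the sources used here. Whole reads were recovered for 100% of 124137 values above 0 (tolerance 0.01 reads; each feature's length was searched for, so this holds partly by construction). The deposited scaling equalled median-ratio factors over 77 snoRNAs to within 0.001%, so each signal value is reads per nucleotide over a snoRNA factor; protein-coding factors differed from it by up to 27.1% and spike-in factors by up to 49.6%. Counts served for depth and the voom alternative, since the unit needed limma-trend (limma 3.58.1, R 4.3.3) after adding 0.00508 to each density and taking log2. That pseudocount, the 10th percentile of nonzero values, was also the minimum mean density. Fold changes are on that scale, which understates changes of low genes. A single model held all 12 libraries (6 residual degrees of freedom). Adjusted p under 0.05 was called. Permuting 2 libraries against 2 cannot give a two-sided p below 0.333, so tests lean on the model. The script was tested on simulated data. Replicate spread exceeded counting error (chi-square per degree of freedom 6.24 to 10.7 over all features and 7.98 to 17.1 over the 44 genes). Whether featureCounts used strand is not given in the sources used here. Named genes were GCN4, up to 10 genes higher and 10 lower in dhh1-delta and 5 in other comparisons by size among those called with non-overlapping libraries, the extremes of each pathway in WT, isozyme pairs and up to 4 called genes per list; others were named after their values were seen. The members, lists and tests were chosen with earlier results of these data known. Replicate numbers did not pair the libraries. Alternatives were other scalings, pseudocounts, filters, voom, a replicate block and leaving out libraries. The values of 1 member are not reported here; it is counted in totals and medians.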

Additional observations from a re-analysis of the deposited data

How the results depend on the processing

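With 2 libraries per strain, counts of called genes depend on the scaling and on single libraries; the cause was not tested. In the libraries labelled ski2-delta 34 became 0 with protein-coding factors, spike-in factors, quantile normalization or only the libraries compared, and 0 to 38 when a library was left out (0 without WT replicate 1, 38 without WT replicate 2, 16 and 0 without the first and second labelled library). In those labelled dbp1-delta 7 became 0 with the same 4 settings, 12 with a 10 times higher filter, 12 with voom and 0 to 25 when a library was left out (0 without WT replicate 1, 25 without WT replicate 2, 14 and 0 without the first and second labelled library). With protein-coding factors and without WT replicate 1, chosen after seeing the data, these counts were 0 and 1. In dhh1-delta 16 became 25 with protein-coding factors, 2 with spike-in factors and 8 to 16 when a library was left out (8 without dhh1-delta replicate 1, 9 without replicate 2); against the mean of the other deletions 23 became 3 with spike-in factors (15.6% of all features called) and 14 to 24 when a library was left out (14 without dhh1-delta replicate 1). In ecm32-delta and slh1-delta the count was 0 throughout.

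The difference of GCN4 changed sign in several settings: in ecm32-delta to -0.14 with spike-in factors, -0.014 with quantile normalization and -0.0086 with protein-coding factors without WT replicate 1; in slh1-delta to 0.014 with protein-coding factors and -0.2 to 0.014 when a library was left out; in dhh1-delta to -0.19 with spike-in factors, -0.052 with quantile normalization and -0.076 to 0.14 when a library was left out; and there against the mean of the other deletions from -0.25, a call, to 0.008 with spike-in factors. With spike-in factors LYS20, LYS4, HIS7, ASN1 and GCN4 became -0.019, -0.14, -0.15, -0.22 and -0.22 in libraries labelled ski2-delta, whereas LYS9 became -0.11 in those labelled dbp1-delta. Of the 16 genes called in dhh1-delta none changed sign in any setting.

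Same-numbered replicates did not deviate together (correlations of -0.078 to 0.072 over 15 pairs of strains, 0 over 0.1). With the replicate number as a block, 17 genes were called in dhh1-delta and 23 there against the other deletions, 34 in the labelled ski2-delta, 7 in the labelled dbp1-delta, 0 in ecm32-delta and 0 in slh1-delta; it changed the call of no gene named by the rule.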
